A study of Homo sapiens with 6 samples.

Results

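The cytokine genes described here are 5 of the IL1 family and its close partners (IL1A, IL1B, IL1RN, IL18 and IL6), 4 CXC chemokines (CXCL1, CXCL2, CXCL3 and CXCL8, the last listed as IL8 in older annotation) and the chemokine CCL20. They were chosen by name, and every probe annotated to them was taken: 13 probes of 10 genes, out of 48803 probes and 18665 named genes on the array. RNA came from KY170R, a radioresistant clone, and from KY170, the human esophageal squamous cancer line from which it was derived by repeated fractionated irradiation. Cells of both lines were irradiated with a linear accelerator and collected at 0, 8 and 24 h, on 1 array per line and time, 6 arrays in 6 groups of 1. The sources do not give the dose or say whether separate cultures were used, and they word the first time point as after irradiation for the arrays and as before it for a PCR of the same lines, so that its meaning is not settled. The p-values reflect how these 6 arrays scatter and nothing wider. Unirradiated cells at 8 or 24 h were not among the samples, so time in culture and irradiation cannot be told apart.

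IL1A and IL1B are ligands of the same receptor, IL1R1, which signals through MYD88 and IRAK kinases to NF-kB and AP-1. IL1A is active as made and is released from damaged epithelial cells, whereas IL1B and IL18 are cut by caspase enzymes in inflammasomes, and IL1RN encodes the antagonist that occupies the receptor without signalling. CXCL8, CXCL1, CXCL2 and CXCL3 are neutrophil attractants that squamous epithelium makes in response to IL1, CCL20 attracts cells that carry CCR6, and IL6 signals through IL6R and IL6ST to STAT3.

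Both lines carried RNA of genes listed here as squamous epithelial markers, a list that also holds general epithelial genes such as EPCAM. Of its 10 genes 7 were matched to a probe, 6 of them with signal over background on all 6 arrays and KRT14 on 5. Background here means an intensity limit of 12.1, set at the upper end of the sizes of the values below 0, which mirror the noise of probes without signal. Among the squamous markers KRT14 read 125, 289 and 80.6 in KY170R, against 5.91, 26.0 and 15.3 in KY170, and was called higher in KY170R (log2 difference 3.43, limma adjusted p = 0.0026), as was DSG3 (1.13, adjusted p = 0.0456), while KRT5 was called lower (-1.74, adjusted p = 0.0341). Whether this shift in epithelial markers had a part in the cytokine differences was not tested. Of the macrophage and monocyte markers 4 of 10 were above the limit on all 6 arrays (CD68, CSF1R, CD14 and CD163) and ITGAM and TYROBP on none, of the neutrophil markers FCGR3B was above it on all arrays and the other 5 on none, and of 7 lymphocyte markers 1, CD79A, was above it on all. The summed intensity of the 10 macrophage and monocyte markers was 893 to 1630 in KY170R and 690 to 1563 in KY170, and that of the 8 fibroblast markers was 39.3 to 113 in KY170R and 60.2 to 95.0 in KY170, with COL1A1 the 1 fibroblast marker above the limit on all arrays. Of 6 endothelial markers PECAM1 and ERG were above it on all arrays, and CDH5 read 21.6, -1.36 and 3.65 in KY170R, against 127, 26.4 and 29.5 in KY170, and was called lower in KY170R (limma adjusted p = 0.0160, with values under 1 set to 1). With values under the limit raised to it KRT14 passed (adjusted p = 0.0140) and DSG3, KRT5 and CDH5 did not (adjusted p = 0.110, 0.116 and 0.125). Both samples are cultured cancer lines, so markers of other tissues are given as probe signal and not as the presence of such cells. For any transcript, fewer cells that make it and less RNA per cell cannot be told apart in bulk RNA. The 0 h arrays stood somewhat apart, with Pearson r between 0.910 and 0.927 to the 8 and 24 h arrays, which shared r of 0.934 to 0.954 with each other, as correlations over probes and not over replicates.

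The members fell into 2 classes by signal. IL1A, IL1B, IL18, IL6, CXCL8, CCL20 and 1 of the 3 IL1RN probes were above the limit on all 6 arrays, 8 probes of 7 genes in all. CXCL1, CXCL2, CXCL3 and the other two IL1RN probes were under it on at least 1 array. Of the 13 probes 10 had a mean log2 value in the upper 50% of the array and were tested. Those left out were CXCL2, CXCL3 and 1 IL1RN probe, and CXCL1 passed that filter with 3 arrays above the limit.

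**Figure D1:**
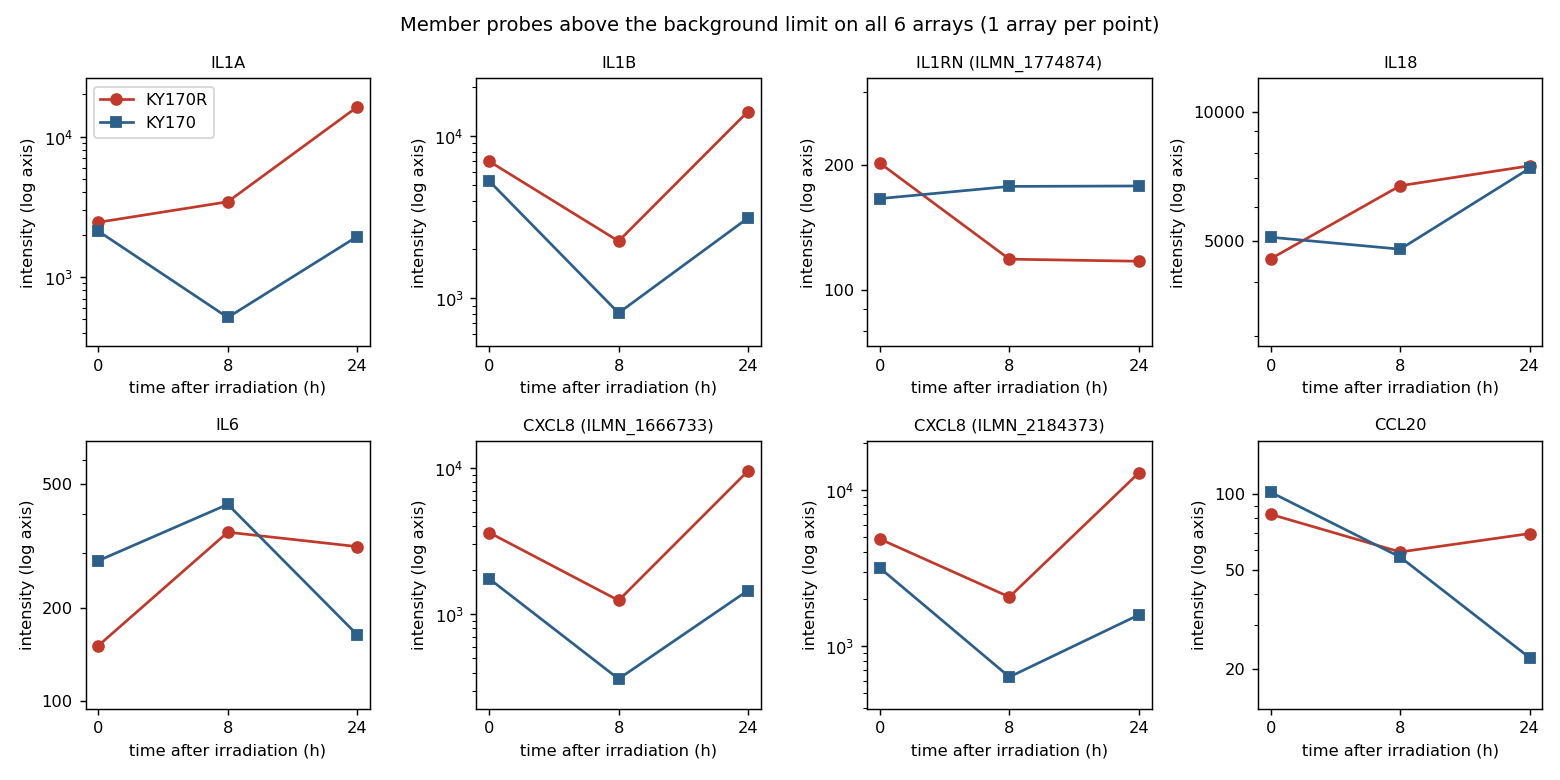
Intensity (log axis) of the 8 member probes above the background limit on all 6 arrays, by time after irradiation (h), with KY170R as red circles and KY170 as blue squares, 1 array per point. IL1B and both CXCL8 probes dipped at 8 h in both lines, and the 24 h array of KY170R was the highest for IL1A, IL1B, CXCL8 and IL18.

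The question of the line comparison was which transcripts separate the resistant clone from its parent. IL1A read 2449, 3428 and 16233 in KY170R at 0, 8 and 24 h, against 2114, 513 and 1935 in KY170. Every KY170R array lay above every KY170 array, and this was so of 1 of the 8 member probes above the limit, IL1A, and of 2.67% of the 15075 tested probes above the limit on all 6 arrays. The 2 lines were close at 0 h, with a ratio of 1.16 of KY170R over KY170, and the ratio was 6.68 at 8 h and 8.39 at 24 h. On the log2 scale IL1A differed by 2.01 ± 1.56 (SD over 3 time points) with a standard error (SE) of 0.69, which did not pass the limma test (adjusted p = 0.377). With 1 array per line and time, the line test takes the time points in place of replicates. A gap that changes with time, like that of IL1A, thus counts as scatter in it.

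IL1B read 6976, 2249 and 14145 in KY170R, against 5274, 811 and 3119 in KY170. KY170R was higher at each time point, by ratios of 1.32, 2.77 and 4.53, although the 8 h array of KY170R lay under the 0 h and 24 h arrays of KY170. Its mean log2 difference of 1.35 ± 0.89 (SD over 3 time points, SE 0.30) did not pass (limma adjusted p = 0.0844).

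CXCL8 was read by 2 probes. ILMN_1666733 gave 3611, 1243 and 9511 in KY170R, against 1748, 362 and 1453 in KY170, and ILMN_2184373 gave 4842, 2061 and 12865 in KY170R, against 3155, 633 and 1581 in KY170. By both probes KY170R was higher at all 3 time points, with ratios of 2.07, 3.43 and 6.55 by ILMN_1666733 and of 1.53, 3.26 and 8.14 by ILMN_2184373. CXCL8 rose 3.59-fold in KY170R by ILMN_1666733 (log2 difference 1.85 ± 0.83, SD over 3 time points, SE 0.27, limma adjusted p = 0.0113). The difference by ILMN_2184373 was of similar size, 1.78 ± 1.21 (SE 0.45), and did not pass (adjusted p = 0.177). CXCL8 was thus the 1 member called among 10 tested member probes, where 1.82% of all tested probes were called, 244 of them higher and 200 lower in KY170R.

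The line calls changed with the settings. With 1 constant prior variance for all probes, with no time point term and with the methods' t-test, 0 of the 10 member probes were called (the constant prior left 1 probe in all). IL1A, IL1B and both CXCL8 probes were called when the 0 h arrays or the 24 h arrays were left out. Those fits hold 1 residual degree of freedom and take their spread mostly from the prior variance. Their calls therefore do not show that the arrays of a probe agree. Without the 24 h arrays IL1A rests on log2 differences of 0.21 at 0 h and 2.74 at 8 h.

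**Figure D2:**
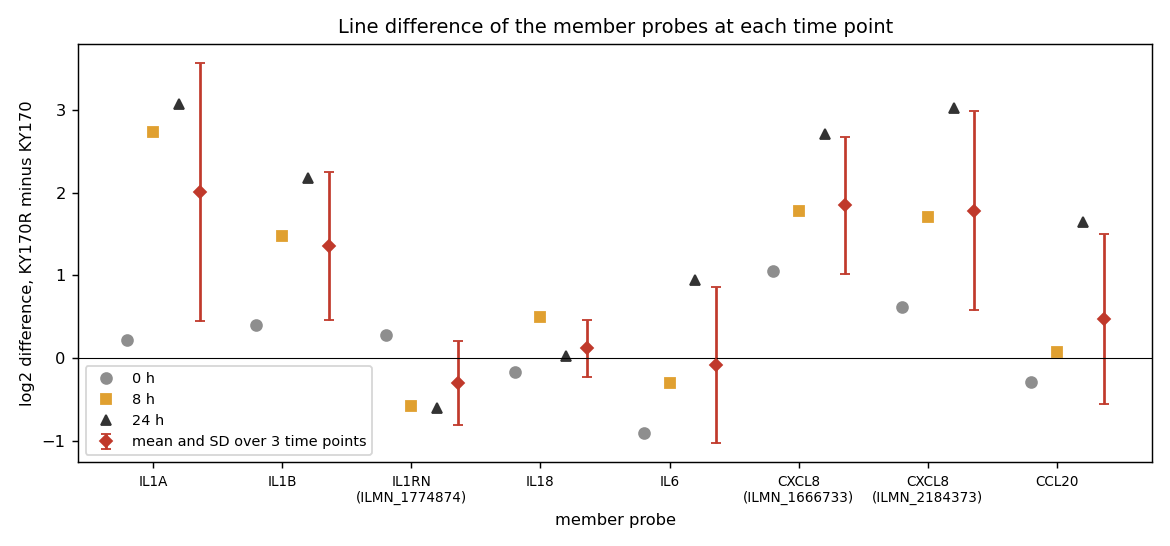
Log2 difference of KY170R minus KY170 at 0, 8 and 24 h (grey circles, orange squares and black triangles) for the 8 member probes above the limit, with the mean and SD over the 3 time points as red diamonds. For IL1A, IL1B and CXCL8 all points lie above 0 and the 24 h point is the highest, while IL6 and CCL20 have points on both sides of 0.

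For the antagonist IL1RN no difference between the lines was detected. Its probe above the limit, ILMN_1774874, read 202, 119 and 117 in KY170R, against 166, 178 and 178 in KY170. KY170R was higher at 0 h and lower at 8 and 24 h, with a log2 difference averaging -0.30 ± 0.50 (SD over 3 time points, limma adjusted p = 0.712). ILMN_1689734 lay between -2.08 and 14.1 and ILMN_1806249, annotated to another IL1RN transcript, between -0.87 and 15.5, at or near the limit in both lines.

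IL18 varied least of the probes above the limit, with 4535, 6712 and 7470.0 in KY170R, against 5089, 4772 and 7368 in KY170. Its highest array was 1.65 times its lowest, where IL1A spanned 31.6-fold, IL1B 17.4-fold and the CXCL8 probes 26.3-fold and 20.3-fold. The log2 difference of IL18 between the lines was 0.12 ± 0.34 (SD over 3 time points, SE 0.15, limma adjusted p = 0.826).

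IL6 read 151, 351 and 315 in KY170R, against 284, 431 and 164 in KY170. The order of the lines turned with time, so that KY170R over KY170 was 0.532 at 0 h, 0.813 at 8 h and 1.92 at 24 h. The mean log2 difference of -0.09 ± 0.95 did not pass (SD over 3 time points, limma adjusted p = 0.95).

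CCL20 read 83.1, 58.8 and 69.7 in KY170R, against 102, 56.1 and 22.3 in KY170. The lines lay close at 0 and 8 h, and at 24 h KY170R was 3.13 times KY170. Over the time points the log2 difference was 0.47 ± 1.03 and did not pass (SD over 3 time points, limma adjusted p = 0.686).

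Counted without a model, 5 of the 8 member probes above the limit on all arrays were at least 2-fold higher in KY170R at 24 h, namely IL1A, IL1B, both CXCL8 probes and CCL20, where 4.34% of all tested probes above the limit on all arrays were. At 8 h they were 4 of 8, beside 3.13% of those probes, and at 0 h 1 of 8, beside 4.96%. IL1A, IL1B and both CXCL8 probes were higher in KY170R at all 3 time points, as were 19.1% of those probes.

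The gap between the lines was wider at 24 h than at 0 h for these genes. A further test compared the change from 0 h between KY170R and KY170, with the 8 and 24 h arrays taken as a single later state. The change between 8 and 24 h thus counts as scatter in it, so it cannot decide whether the gap at 24 h differs from that at 0 h. The change from 0 h was larger in KY170R by a log2 value of 2.69 (SE 1.49) for IL1A, 1.42 (SE 1.64) for IL1B and 1.20 (SE 1.77) and 1.75 (SE 1.49) for the CXCL8 probes. None passed, with adjusted p = 0.999 for each in limma, which called 0 of 24401 probes (0.00%) and found 601 with an unadjusted p under 0.05, 0 of the member probes among them.

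The stretches before CXCL1, CXCL2 and CXCL3 resemble each other closely. The 120 bases before the start site of CXCL1, CXCL2 and CXCL3, which like CXCL8 lie on chromosome 4, are shown beside those of CXCL8, IL1B and IL1A, the members above the limit whose signal spanned most between arrays. Capitals mark matches on either strand to an NF-kB motif (GGANTTTCC) or to an AP-1 motif (TGANTCA), which do not overlap in the windows shown. Sequences are from RefSeq, build GRCh38.p14, written 5′ to 3′ along the gene, and for IL1A the more distal of 2 listed start sites is used.
CXCL8, chr4:73740449-73740568, forward strand: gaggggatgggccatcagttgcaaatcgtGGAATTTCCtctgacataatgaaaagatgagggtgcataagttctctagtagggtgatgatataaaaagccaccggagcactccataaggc
CXCL1, chr4:73869273-73869392, forward strand: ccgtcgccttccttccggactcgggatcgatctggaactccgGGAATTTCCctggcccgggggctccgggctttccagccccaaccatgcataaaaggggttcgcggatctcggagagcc
CXCL2, chr4:74099196-74099315, reverse strand: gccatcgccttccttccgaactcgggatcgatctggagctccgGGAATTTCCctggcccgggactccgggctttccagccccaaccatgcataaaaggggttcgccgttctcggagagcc
CXCL3, chr4:74038690-74038809, reverse strand: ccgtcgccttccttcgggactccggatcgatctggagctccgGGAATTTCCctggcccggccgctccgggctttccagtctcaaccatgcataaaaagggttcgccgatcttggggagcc
IL1A, chr2:112784494-112784613, reverse strand: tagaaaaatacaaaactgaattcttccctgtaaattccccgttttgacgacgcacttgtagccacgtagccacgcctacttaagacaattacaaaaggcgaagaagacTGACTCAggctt
IL1B, chr2:112836780-112836899, reverse strand: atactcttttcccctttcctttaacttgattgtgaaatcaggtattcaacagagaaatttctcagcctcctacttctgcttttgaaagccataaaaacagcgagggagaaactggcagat
The 250 bases before each start were searched on both strands. In CXCL1, CXCL2 and CXCL3 the same letters, GGAATTTCC, began 78, 77 and 78 bases before the start, and CXCL8 held them at 91 bases, with an AP-1 match further out at 137 bases and a TATA box (TATAAA) at 31. Of 35116 promoter windows 1.45% held the NF-kB motif, 6.57% the AP-1 motif and 10.7% TATAAA. IL6 held GGATTTTCC 72 bases before its start. The NF-kB letters were not in the windows of IL1A, IL1B, IL1RN and CCL20. Only this form of the motif was searched, so other forms of an NF-kB site would be missed. At the IL1A start site used above, an AP-1 match began 12 bases before the start and TATAAA 239 bases before it. At its other start site AP-1 matches began at 105 and 55 bases. For IL1RN the AP-1 match and the TATAAA match lay before different start sites. CCL20 held a TATAAA match and IL1B none of the motifs. Windows were available for 9 of the 10 members, and none was available for IL18.

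CXCL1 and CXCL2 were identical at 93.4% of aligned positions in these 120 bases, CXCL1 and CXCL3 at 90.8%, and CXCL2 and CXCL3 at 88.4%, whereas CXCL8 and CXCL1 were identical at 46.7%. The probes of these paralogs read near or under the limit on most arrays. CXCL1 gave 79.1, 0.46 and 17.0 in KY170R, against 24.2, -2.21 and 3.31 in KY170, so that it was measured at 0 h in both lines and at 24 h in KY170R only. CXCL2 gave 11.5, 4.47 and 20.3 in KY170R, against -3.18, 7.78 and -0.59 in KY170, above the limit on the 24 h array of KY170R alone. CXCL3 gave 7.61, 8.83 and -7.31 in KY170R, against 9.24, 10.6 and -7.04 in KY170, under the limit on every array. For CXCL1 the log2 difference between the lines was 1.36 with values under 1 set to 1, and did not pass (SE 0.84, limma adjusted p = 0.558). No fold between the lines is given for CXCL2 or CXCL3. These genes are paralogs, and whether a probe reads 1 of their RNAs or several was not tested.

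**Figure D3:**
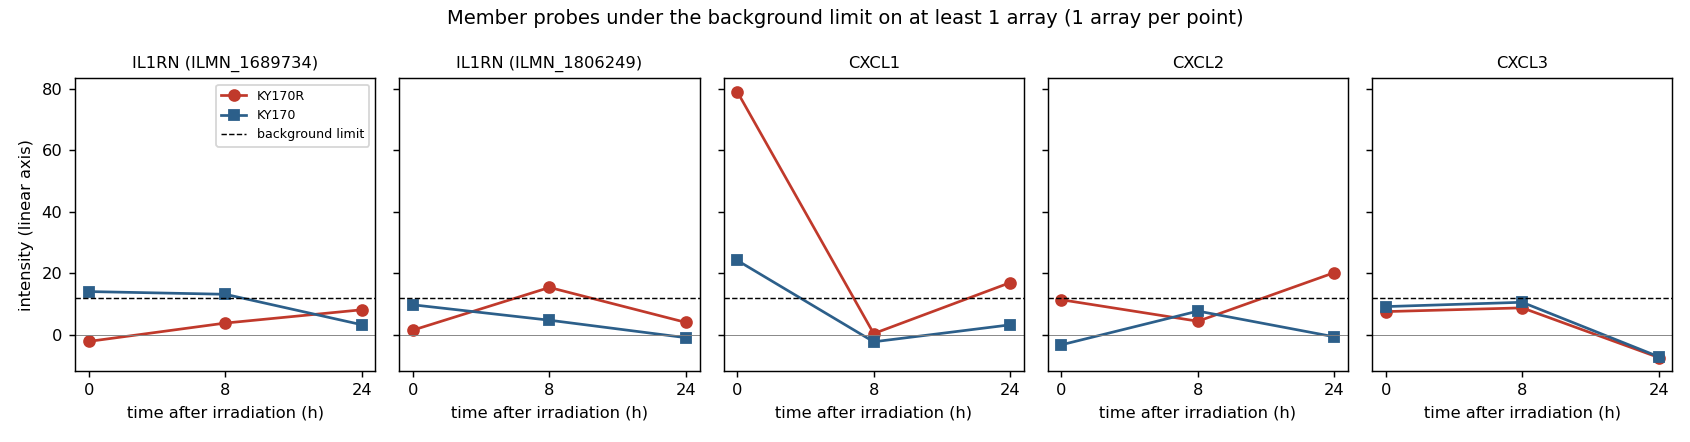
Intensity (linear axis) of the 5 member probes under the background limit (dashed, 12.1) on at least 1 array, by time after irradiation (h), with KY170R as red circles and KY170 as blue squares, 1 array per point. CXCL1 stands clear of the limit at 0 h, and the other 4 probes stay near it.

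The second comparison set the later times against 0 h and against each other, averaged over the lines, and the change within each line is given beside it as 1 array against 1. IL1B fell at 8 h, to 0.322 of its 0 h value in KY170R and 0.154 in KY170 (log2 change -2.17, SE 0.37, limma adjusted p = 0.0043). CXCL8 fell likewise by ILMN_1666733, to 0.344 in KY170R and 0.207 in KY170 (log2 change -1.91, SE 0.33, adjusted p = 0.0028). ILMN_2184373 gave 0.426 in KY170R and 0.201 in KY170, with a log2 change of -1.78 that did not pass (adjusted p = 0.0721). CXCL1 fell as well: it was under the limit on both 8 h arrays and above it on both 0 h arrays, at least 3.62-fold lower, and its adjusted p of 0.0028 belongs to the difference with values under 1 set to 1. These 3 probes were called lower among 10 tested member probes, where 13.9% of all tested probes were called lower at 8 h and 15.2% higher.

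The members that were not called lower differed among themselves. IL1A was at 8 h at 1.40 times its 0 h value in KY170R and at 0.243 of it in KY170, and the average over the lines did not pass (log2 change -0.78, limma adjusted p = 0.613). IL18 was at 1.48 times its 0 h value in KY170R and at 0.938 of it in KY170, and IL1RN (ILMN_1774874) at 0.588 in KY170R and 1.07 times in KY170. IL6 was higher at 8 h in both lines, 2.32 times in KY170R and 1.52 times in KY170, without passing (log2 change 0.91, adjusted p = 0.110).

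Between 8 and 24 h IL1B rose, 6.29-fold in KY170R and 3.85-fold in KY170 (log2 change 2.30, SE 0.37, limma adjusted p = 0.0187). CXCL8 rose by ILMN_1666733, 7.65-fold in KY170R and 4.01-fold in KY170 (log2 change 2.47, SE 0.33, adjusted p = 0.0084). By ILMN_2184373 the ratios were 6.24 in KY170R and 2.50 in KY170, and the log2 change of 1.98 did not pass (adjusted p = 0.112). IL1A was 4.74 times higher at 24 h than at 8 h in KY170R and 3.77 times in KY170, and did not pass either (log2 change 2.08, adjusted p = 0.278). The calls for IL1B and CXCL8 make 2 of 10 tested member probes, beside 3.53% of all tested probes called higher between these times. With the 0 h arrays left out, IL1A and the second CXCL8 probe were also called, a fit added after the data were seen. It too holds 1 residual degree of freedom and takes its spread mostly from the prior variance. With 1 constant prior variance 0 member probes were called at 8 h, at 24 h or between them.

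The 8 h dip and the higher 24 h values were also counted together without a model. At least 2-fold lower at 8 h than at 0 h and at least 2-fold higher at 24 h than at 8 h were 3 of the 8 member probes above the limit in KY170R, namely IL1B and both CXCL8 probes. In KY170 they were 4, these 3 and IL1A. Of all tested probes above the limit on all arrays 3.34% did so in KY170R and 2.98% in KY170.

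Against 0 h, the 24 h arrays of KY170R and KY170 lay on opposite sides for several members. At 24 h IL1A was at 6.63 times its 0 h value in KY170R and at 0.915 of it in KY170, IL1B at 2.03 times in KY170R and 0.591 in KY170, and CXCL8 at 2.63 and 2.66 times by its probes in KY170R and at 0.831 and 0.501 in KY170. Averaged over the lines, none of these passed (limma adjusted p = 0.337 for IL1A, 0.820 for IL1B and 0.226 and 0.815 for CXCL8). IL18 rose between 0 and 24 h, 1.65-fold in KY170R and 1.45-fold in KY170 (log2 change 0.63, SE 0.18, adjusted p = 0.0212), the 1 call among 10 tested member probes, beside 19.2% of all tested probes called higher and 17.4% lower. CCL20 was lower at 24 h in both lines, at 0.838 in KY170R and 0.219 in KY170, without passing (log2 change -1.22, adjusted p = 0.0716).

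**Figure D4:**
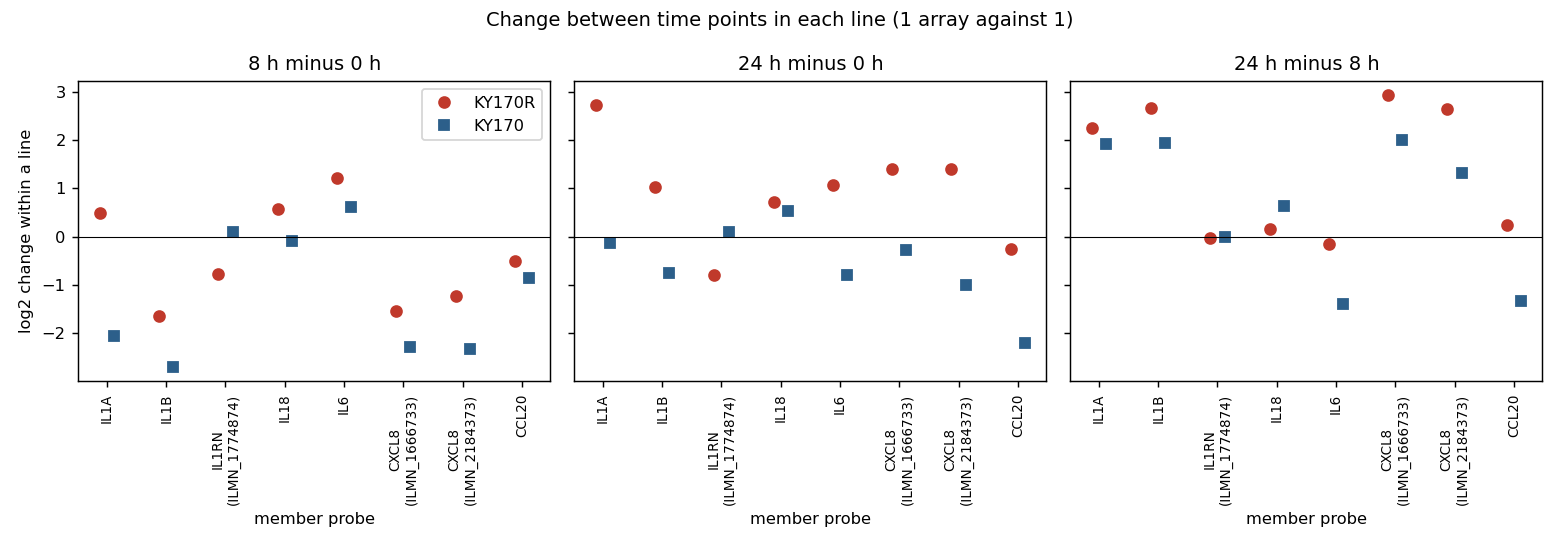
Log2 change within each line between 8 and 0 h, 24 and 0 h, and 24 and 8 h for the 8 member probes above the limit, with KY170R as red circles and KY170 as blue squares, each 1 array against 1. At 24 h against 0 h, IL1A, IL1B, IL6 and both CXCL8 probes lie above 0 in KY170R and below 0 in KY170.

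Other genes of these pathways were read from 6 lists. Of the 5 genes called between the lines, AIM2 and IL36G also passed with the floor at the background limit, and IL1RL1, CXCL10 and IL7 did not (limma adjusted p = 0.0639, 0.0923 and 0.221). Of receptors and decoys 14 of 14 were matched and 9 tested, and between the lines 0 rose and 1 fell, beside 1.48% of named genes called higher and 1.13% called lower (brightest tested probe of each gene). The gene that fell was IL1RL1, the receptor of IL33, with 146, 173 and 285 in KY170R, against 340.2, 470 and 540 in KY170 (log2 difference -1.20, limma adjusted p = 0.0206). A second IL1RL1 probe, ILMN_2242900, read 35.7, 22.3 and 63.0 in KY170R, against 77.3, 124 and 191 in KY170. The IL1RL1 probe ILMN_1697444 was under the limit on all arrays. IL1R1, the receptor that IL1A and IL1B bind, its decoy IL1R2, and CXCR1 were under the limit on all 6 arrays by their single probes, while the co-receptor IL1RAP was above it on all by 1 of its 3 probes.

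Between times, 5 of the 9 receptors rose and 0 fell at 8 h, and 8 rose and 0 fell at 24 h. Of named genes 18.6% were called higher and 18.7% lower at 8 h, and 23.7% higher and 22.6% lower at 24 h. IL6ST, the signalling chain of the IL6 receptor, picked out after its values were seen, read 135, 888 and 743 in KY170R, against 89.4, 590.5 and 565 in KY170 (log2 change 2.72 at 8 h, limma adjusted p = 1.2e-04). CCR6, the receptor of CCL20, was read at 7207 to 15540 by ILMN_2387696, while its other two probes stayed between -5.93 and 26.4, so its level is uncertain.

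Receptor adaptors and kinases showed 0 risen and 0 fallen between the lines among 15 tested of 17 matched. Of these, 10 of 15 were higher in KY170R, beside 48.9% of all tested named genes. The median log2 difference was 0.18, beside -0.01 over those genes. Whether the list as a whole was shifted was not tested. Its brightest gene, the kinase IRAK1, differed by -0.02 (limma adjusted p = 0.978). Of genes for processing and release 1 rose and 0 fell among 9 tested of 16 matched. This was AIM2, an inflammasome sensor of DNA, with 487, 345 and 971 in KY170R, against 153, 101 and 366 in KY170 (log2 difference 1.61, limma adjusted p = 0.0036). Its ratio was similar at each time, and the highest KY170 array lay above the lowest KY170R array. A second AIM2 probe was under the limit on all arrays. CASP1, which cuts IL1B and IL18, differed by 0.84 and did not pass (adjusted p = 0.0738), and PYCARD, the adaptor of inflammasomes, was under the limit on all arrays.

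Of the other ligands of the IL1 family 1 of 4 tested genes rose and 0 fell, out of 7 matched. IL36G, a cytokine of stressed squamous epithelium, read 97.7, 64.5 and 132 in KY170R, against 0.92, 4.43 and 19.5 in KY170, where 1 of the 3 arrays was above the limit. IL36G was at least 6.64-fold higher in KY170R, with values under the limit raised to it (limma adjusted p = 0.0152 on those values). Among other chemokines 1 of 6 tested genes rose and 0 fell, out of 16 matched. CXCL10, an attractant of T cells induced by interferon, read 139, 59.9 and 241 in KY170R, against 61.2, 19.0 and 30.2 in KY170 (log2 difference 1.94, adjusted p = 0.0277). The 8 h array of KY170R lay just under the 0 h array of KY170. Of the other epithelial cytokines 1 of 7 tested genes rose and 0 fell, out of 13 matched. IL7, a lymphocyte growth factor, read 15.0, 33.8 and 49.8 in KY170R and was under the limit on all KY170 arrays, at least 2.42-fold higher. Its adjusted p of 0.0427 came with values under 1 set to 1, and with the values under the limit raised to it IL7 did not pass (adjusted p = 0.221). Its second probe was under the limit on all arrays.

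**Figure D5:**
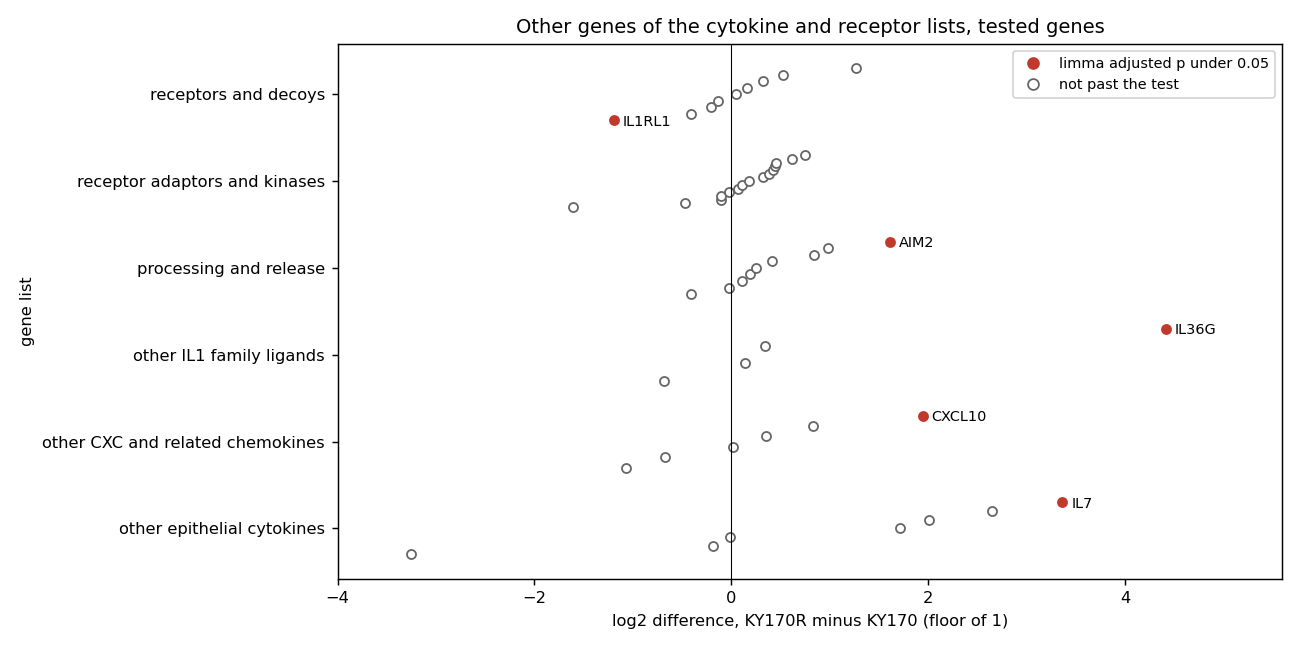
Log2 difference of KY170R minus KY170 for the tested genes of 6 lists of receptors, signalling genes, processing genes and other cytokines, 1 point a gene by its brightest tested probe, filled red where the limma adjusted p was under 0.05. IL1RL1 is the 1 called gene below 0, and AIM2, IL36G, CXCL10 and IL7 are the called genes above it.

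The genes whose profile over the 6 arrays was most like the mean of the 9 member probes above the limit on at least 3 arrays were SLC66A3 (r = 0.990), ITPRIP (r = 0.976), STRADA (r = 0.975), CTSL (r = 0.973) and PLCH2 (r = 0.968), by Pearson correlation of log2 values over 6 arrays, as a description with no test. Of 11418 candidate genes 24 had r above 0.95. How many unrelated genes would reach this r over 6 arrays was not tested, so the count does not show a link to the members. CTSL, the lysosomal protease cathepsin L, read 3170 in KY170R at 0 h, 2452 at 8 h and 3623 at 24 h, against 3113, 1833 and 2450.1 in KY170.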

How the data were processed

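RNA of KY170R and KY170 cells at 0, 8 and 24 h was hybridised to Illumina Human-6 V3 bead arrays. The deposited table holds linear probe intensities that the authors exported from Illumina BeadStudio after background subtraction, which left 29.9% of each array below 0, and after normalization between arrays (medians 6.46 to 6.47). The sources used here do not name the normalization method. Profiling in triplicate is stated in the methods, and it is not known whether a column pools repeats. Bead counts and detection values were not used here, and the number of arrays limits precision. By the platform annotation 27578 probes carried a single gene symbol, 13 carried several and 21212 carried none. Names were updated by Entrez identifier through a RefSeq table of GRCh38.p14.

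Values were raised to a floor of 1 and turned into log2, and the upper 50% of probes by mean (24401) were tested with limma 3.58.1 in R 4.3.3 (lmFit, then eBayes with a trended and robust prior variance, two-sided, Benjamini-Hochberg over all tested probes, threshold 0.05). The model had terms for line and for the 3 time points, with 2 residual degrees of freedom. A second model held the line, the later times as a single level and their interaction. On simulated arrays of 24401 probes with 200 changed, 74.6% of 4-fold and 37.3% of 2-fold line differences were recovered, with 10 false calls among 24201. The noise of each simulated probe was set by its mean level alone, whereas real probes of like level differ in scatter. These shares therefore need not hold for the real arrays. A fold against arrays under the limit is the brighter mean over that limit. Named genes were all members, those of 6 lists past the line test or else the brightest of a list, and the 5 with the most similar profile. IL1RAP, IL1R1, IL1R2, CXCR1, CCR6, CASP1, PYCARD and IL6ST were named beside them for their role or after their values were seen. The members, lists and tests were chosen with earlier results of these data known. Alternatives were 1 constant prior variance, a floor at the background limit, an offset of 16, quantile normalization, no filter, the upper 30%, the methods' t-test, no time point term and each time point left out. Figures were drawn with matplotlib 3.10.9.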

Additional observations from a re-analysis of the deposited data

Results flagged for a closer look

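Several members moved one way in KY170R and the other way in KY170, or changed the order of the lines between times, by a log2 value of at least 0.25 each way among the 8 probes above the background limit on all arrays. Each value rests on 1 array against 1 and these opposite moves were not tested one by one. The only related test took the 8 and 24 h arrays as a single later state, so it cannot decide on moves at 1 time alone. The test of a different change after 0 h called 0 probes in limma (601 at an unadjusted p under 0.05). Between 0 and 8 h IL1A changed by 0.49 in KY170R and -2.04 in KY170. Between 0 and 24 h IL1B changed by 1.02 in KY170R and -0.76 in KY170. CXCL8 changed over the same time by 1.40 in KY170R and -0.27 in KY170 by ILMN_1666733, and by 1.41 in KY170R and -1.0 in KY170 by ILMN_2184373. IL6 changed by 1.06 in KY170R and -0.79 in KY170, and KY170R minus KY170 for IL6 was -0.91 at 0 h, -0.30 at 8 h and 0.94 at 24 h. For IL1RN (ILMN_1774874) the line difference was 0.28 at 0 h, -0.58 at 8 h and -0.60 at 24 h. For CCL20 it was -0.29 at 0 h and 1.64 at 24 h.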

How the results depend on the processing

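Of 350 values of single member probes under the alternatives, 322 kept their direction and their side of the threshold, 9 lost the call, 12 gained one and 7 changed sign. Most of the 350 had not passed in the main fit. The 9 losses therefore fall on the few values that had passed, and the share of 350 says little on how stable those calls are. With 1 constant prior variance the line difference had 1 probe called, and the changes at 8 h, at 24 h and between 8 and 24 h had 0 (444, 7106, 8915 and 1590 with the trended prior), with 0 member probes in each. At an unadjusted p under 0.05 that fit held 2325, 7457, 9219 and 3872 probes. The line difference had 180 probes with the floor at the background limit, 782 with the offset of 16, 5 by the methods' t-test and 15 without the time point term, with 0 member probes in both of the last. Leaving out 1 time point gave 257 to 1284 probes and 1 to 4 member probes, the 4 both without the 0 h arrays and without the 24 h arrays. These fits hold 1 residual degree of freedom and take their spread mostly from the prior variance. At 24 h against 0 h the member probes called were 2 with the floor at the limit, beside 35.6% of all tested probes. They were 3 with the offset, beside 39.4%. CXCL1 and, with the offset, CCL20 were added as lower. Between 8 and 24 h 200 probes were called with the floor at the limit, 2405 with the offset, and 2922, with 4 member probes, without the 0 h arrays. The values that changed sign had not passed the test. They were ILMN_1689734 of IL1RN at 8 h (-0.047) and 24 h (-0.11) with the floor at the limit and at 24 h (-0.065) with the offset, and the line differences of IL6 (-0.60 to 0.32 with 1 time point left out, above 0 without 0 h or 8 h), IL18 (-0.073 to 0.26, below 0 without 8 h) and CCL20 (-0.11 to 0.86, below 0 without 24 h). CXCL8 (ILMN_1666733) was called higher in KY170R in 8 of 11 alternatives, with adjusted p from 2.0e-09 to 1.0. The cause of these changes was not tested. No paired analysis was possible because the labels carry no replicate numbers and each group holds 1 array, other than the comparison of the lines within time points that the main model makes. Signal near background limits CXCL1, CXCL2, CXCL3 and the dim IL1RN probes.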

Other observations

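Among the list genes, IRAK2, a kinase of the IL1 receptor complex, and IL37, a cytokine of the IL1 family, were picked out after their values were seen, since they too dipped at 8 h in both lines. IRAK2 read 710.5, 348 and 1139 in KY170R at 0, 8 and 24 h, against 725, 149 and 548 in KY170. It fell at 8 h (log2 change -1.66, limma adjusted p = 0.0026) and rose between 8 and 24 h (1.80, adjusted p = 0.0132). IL37 read 265, 50.7 and 132 in KY170R, against 249, 39.8 and 88.0 in KY170. It fell at 8 h (log2 change -2.51, adjusted p = 4.5e-04) and rose between 8 and 24 h (1.26, adjusted p = 0.0456), and its other two probes were under the background limit on all arrays. Neither differed between the lines past the test (adjusted p = 0.196 for IRAK2 and 0.660 for IL37).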
